A study of Mus musculus with 6 samples.

Results

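The places described here are short stretches of mouse DNA in which 5 successive CpG dinucleotides lie 4, 5, 7 and 7 bp apart, written 4-5-7-7. They were found in a deposited table of CpG methylation after both strands of each CpG were merged. A run was any such set of 5 successive CpGs read in either direction, its members were the run and all CpGs of the table within 300 bp of it, and runs within 1 kb of each other made 1 copy. The rule gave 112 runs in 108 copies, with 1347 CpGs of the 8610279 CpGs in the table. The spacing itself was chosen by its methylation level, which was lower in Tex15 knockout germ cells than in controls. The knockout values below therefore describe how the members were chosen, and only the comparison of heterozygous with wild-type pups is tested.

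Methylation was measured by whole-genome bisulfite sequencing, which reads an unmethylated cytosine as T and a methylated one as C. Male germ cells were taken at postnatal day 2.5 from the testes of single pups by flow sorting on Oct4-GFP, a reporter that the Oct4 (Pou5f1) promoter drives in germ cells. The pups came from matings of Tex15 heterozygotes on a mixed strain background, and the reporter was the basis of the sort in every genotype. Each genotype had 2 pups as its samples: Tex15WT 8 and 9 (wild type), Tex15HT 7 and 18 (heterozygous) and Tex15KO 3 and 16 (knockout). DNA methylation alone was measured, so neither the genotype of a pup nor the identity of the sorted cells was checked with marker genes here.

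In male germ cells of the mouse fetus, DNA methylation is erased and then laid down anew before birth. At young retrotransposons, such as LINE-1 and IAP elements, the new methylation depends on the piRNA pathway, in which nuclear PIWI proteins loaded with small RNAs direct silencing to matching copies. TEX15 is a germ cell protein of that nuclear step, and without it such elements stay undermethylated and spermatogenesis fails. Full-length mouse LINE-1 elements carry their promoter at the 5′ end as a tandem array of short monomers followed by a long coding body. The table assigns no family to a position, and no family is assigned to the copies here.

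The table holds positions and counts on mm9, so the letters at the copies themselves were not read. The same spacing was instead looked for in RefSeq promoters of build GRCm38.p6, each 250 bases before to 50 after a gene start, as the motif CGNNCGNNNCGNNNNNCGNNNNNCG with no further CG inside, on both strands. It occurred in 10 of 32851 promoters (0.0304%). In 2 of these, the next CpG lay 29 bp before the run and 35 bp after it, which are the distances to the nearest CpG most often found at the copies in the methylation table. These 2 stretches are shown because they give one form that a 4-5-7-7 place takes in DNA, together with the 25-base runs of 2 other promoters for contrast. Capitals mark the CpGs, and each sequence is written on the strand where the run reads 4-5-7-7. Gm36816 is at chr6:67008975-67009119 on the minus strand, A230004M16Rik at chr11:41710199-41710343 on the minus strand, and the stretches containing the Mat2a and Hps3 runs are at chr6:72439546-72439690 and chr3:20035261-20035355 on the plus strand.
Gm36816: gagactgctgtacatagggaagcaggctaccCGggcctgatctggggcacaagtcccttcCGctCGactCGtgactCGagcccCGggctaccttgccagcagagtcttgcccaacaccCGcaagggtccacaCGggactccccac
A230004M16Rik: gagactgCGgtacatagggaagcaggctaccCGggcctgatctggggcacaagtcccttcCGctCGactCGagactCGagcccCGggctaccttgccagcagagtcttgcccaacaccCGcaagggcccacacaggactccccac
Mat2a: CGccCGgctCGggctcCGcccctCG
Hps3: CGccCGgacCGctgggCGgcttcCG

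The stretches at Gm36816 and A230004M16Rik were identical at 141 of 145 bases (97.2%). The other 8 promoters with the motif matched the Gm36816 stretch at 27.6% to 35.9% of aligned positions and held 20 to 53 CpGs each (median 32). At Gm36816 the run read 4-5-7-7 in the direction of the gene, with its farthest CpG 72 bp before the start. At A230004M16Rik it read 7-7-5-4 in the direction of the gene, with its nearest CpG 62 bp before the start. These GRCm38 places were not matched to particular copies on mm9, and a motif match is a description of letters only. By position, the nearest copies on mm9 were at chr6:79473342-79473365 and chr11:46317798-46317821, each megabases away, though the builds number positions differently. The stretches at Gm36816 and A230004M16Rik are thus not given as the sequence of any copy.

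The copies fell on all 19 autosomes (98 copies), on the X chromosome (6), and on sequence assigned to Y without a position (2) or unplaced (2). No chromosome held more than 9 copies. Copies on X made up 5.56% of the total, while X held 0.434% of all CpGs in the table. The table lists a cytosine only where the samples of each genotype had enough calls. The share of 0.434% therefore counts listed CpGs only, and whether copies are enriched on X was not tested. The runs read 4-5-7-7 on the plus strand in 48 copies and on the minus strand in 60.

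CpGs around the runs recurred at fixed distances. The nearest CpG before the run stood exactly 29 bp from its first CpG at 28 runs, and the nearest CpG after it exactly 35 bp from its last at 32 runs, with both at 8 runs. Allowing 1 bp either way, 31 runs had the first and 35 the second. The next most frequent distance before a run, 9 bp, occurred at 4 runs. A copy is called flanked here where the nearest CpG lay 28 to 30 bp before a run or 34 to 36 bp after it. There were 54 flanked copies, and 13 copies without such a nearest CpG held 20 or more CpGs within 300 bp and are called CpG-dense. The remaining 41 copies had neither feature, among them all 15 copies in which the table held no CpG but those of the run. This division used CpG positions only, but it was made after methylation values had been seen.

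In the 95 copies that were not CpG-dense, 7 offsets from the first CpG of the run carried a CpG in at least 10% of 99 runs. The most frequent were +58 bp (34.3% of runs), -29 bp (31.3%), -53 bp (16.2%) and +72 bp (15.2%), and 13.1% of runs had a CpG at each of -72, -70 and -68 bp. These shares count every CpG at the offset, nearest or not. All 7 offsets held a CpG in the whole promoter of Gm36816 or A230004M16Rik, with 6 of 7 in each, and 3 of 7 lay within each printed stretch. Of the 13 runs in CpG-dense copies, 0 had a CpG at -29 bp and 1 at +58 bp, and their most frequent offset was filled in 4 runs (30.8%). Since the nearest CpG at 2 of these distances defined the flanked copies, those shares follow in part from the division. The 2 promoters were picked for their CpGs 29 bp before and 35 bp after the run. Their matches at -29 and +58 bp were therefore fixed in advance. Whether the CpG-dense copies are copies of a repeat was not tested.

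**Figure D1:**
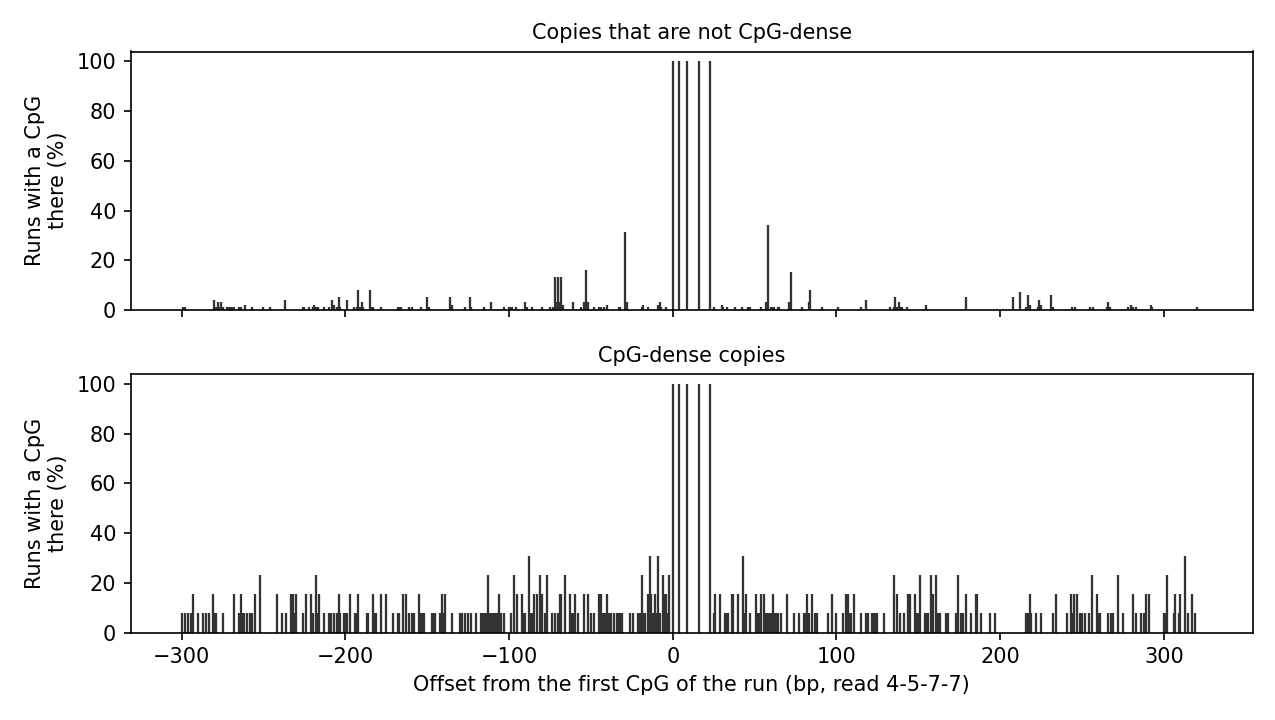
Share of runs (%, vertical axis) with a CpG at each offset from the first CpG of the run (bp, horizontal axis), for the 99 runs in copies that were not CpG-dense (top) and the 13 runs in CpG-dense copies (bottom). Beside the 5 CpGs that define the run, peaks at -29 and +58 bp reach 31.3% and 34.3% in the top panel and no offset outside the run passes 30.8% (4 runs) in the bottom panel.

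Runs could also repeat within a copy. Of the 108 copies, 105 held a single run, 2 held 2 runs and 1 held 3. The copy at chr13:40721436-40721875 (mm9) held 3 runs that started exactly 208 bp apart. The copy at chr12:89218174-89218405 held 2 runs 208 bp apart, and that at chr3:59322226-59323081 held 2 runs 832 bp apart, which is 4 times 208. All 4 distances between successive runs of one copy were thus whole multiples of 208 bp.

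Across all members, the methylation level, the C calls over all calls, was lower in both knockout samples than in all 4 controls. It was 54.7% in Tex15WT 8 and 56.3% in Tex15WT 9, 54.7% in Tex15HT 7 and 54.3% in Tex15HT 18, and 18.6% in Tex15KO 3 and 12.0% in Tex15KO 16. The calls behind each level numbered 4751 to 8847, and the 95% Wilson interval was 53.3% to 56.1% in Tex15WT 8, the sample with the fewest. Reads carried no molecular identifiers and one read can cover all CpGs of a run, so such intervals cover counting error only. The means were 55.5% ± 1.12 (SD, n = 2) for Tex15WT, 54.5% ± 0.293 (SD, n = 2) for Tex15HT and 15.3% ± 4.63 (SD, n = 2) for Tex15KO. The knockout mean was 40.2 points below wild type (-40.2) and 39.2 points below heterozygous (-39.2), larger than the spread between the pups of a genotype. Over the whole table the same levels were 64.2% to 65.3% in the controls, 68.4% in Tex15KO 3 and 65.7% in Tex15KO 16, so the order of knockout and control samples seen at the copies was not that of the table.

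The 3 kinds of copies differed in level. At the flanked copies, the level was 80.5% and 82.6% in the wild-type samples, 78.9% and 78.4% in the heterozygous samples, and 21.1% and 16.5% in Tex15KO 3 and 16. At the 41 copies with neither feature, it was 68.7%, 65.4%, 66.4% and 69.5% in the controls in the same order, and 25.7% and 15.9% in the knockout samples. At the CpG-dense copies, all samples were nearly unmethylated, with 0.447% to 0.512% in the controls, 1.78% in Tex15KO 3 and 0.500% in Tex15KO 16. The low mean over all members thus mixes methylated copies with 13 copies that were unmethylated in every genotype. Without the CpG-dense copies, the means were 77.5% ± 0.219 for Tex15WT, 75.5% ± 0.385 for Tex15HT and 19.2% ± 4.02 for Tex15KO (SD, n = 2 each), a knockout difference of -58.3 points from wild type.

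Most copies followed the summed level one by one. A copy could be followed singly where every sample had 10 calls or more, and 61 of the 108 passed (39 flanked, 12 with neither feature and 10 CpG-dense). Both knockout samples lay below all 4 controls at 46 of the 61 copies, made up of 37 flanked, 9 with neither feature and 0 CpG-dense. Across 1 kb tiles of the table the same held for 4.3%. Both were more than 30 points below all controls at 37 copies, against 0.444% of tiles. All 4 controls exceeded 50% at 44 copies and both knockout samples were under 50% at 39 of these, against 0.648% of such tiles. Because the knockout levels chose the spacing, nothing is read from these shares.

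**Figure D2:**
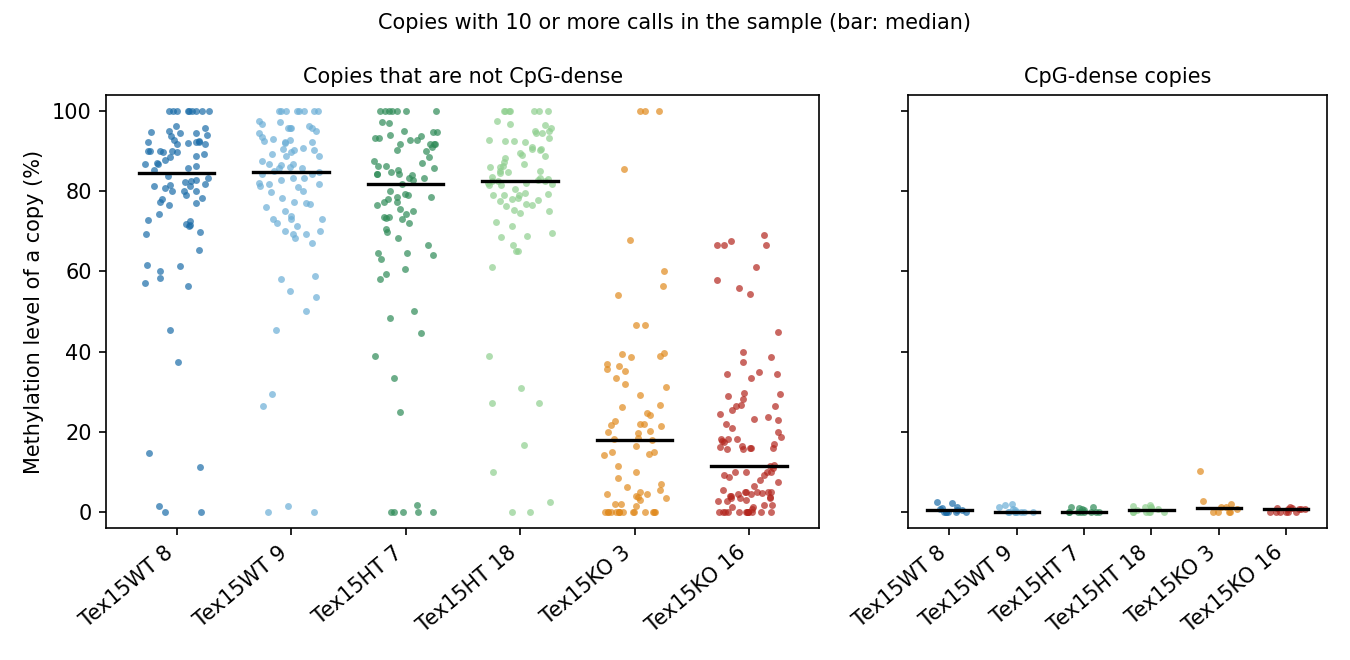
Methylation level of each copy (%, vertical axis) in the 6 samples (horizontal axis), for copies with 10 or more calls in the sample, with those that were not CpG-dense at the left and CpG-dense copies at the right. Points are copies and bars are medians over copies. The control copies at the left gather near the top and the knockout copies near the bottom, while the CpG-dense copies sit near 0 in every sample.

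Among the 51 copies that passed and were not CpG-dense, the median level was 86.2% and 84.2% in the wild-type samples, 79.4% and 82.1% in the heterozygous samples and 18.4% and 16.5% in the knockout samples. Tex15KO 16, the most deeply sequenced sample, had 10 or more calls at all 108 copies. It was under 50% at 86 of the 95 copies that were not CpG-dense, and Tex15KO 3 was under 50% at 65 of the 73 such copies with enough calls. In single controls, 6 to 11 of the 81 to 83 such copies with enough calls were under 50% as well. Of the 44 copies with all controls over 50%, Tex15KO 16 was under 50% at 40 and Tex15KO 3 at 42, against 1.05% and 5.32% of such tiles, and nothing is read from these shares either.

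Named copies give the values at single places of mm9. The copy with 3 runs on chromosome 13 was at 94.5% and 92.6% in the wild-type samples, 88.6% and 85.1% in the heterozygous samples, and 5.48% and 15.7% in Tex15KO 3 and 16, each from at least 164 calls. The knockout samples lay far below every control there. A copy on unplaced sequence (chrUn_random:1752636-1752659) was at 81.4% and 69.3%, 73.0% and 82.1%, and 19.8% and 5.05% in the same order. The copy at chr17:38820330-38820353 was at 89.7% and 86.6%, 86.2% and 83.3%, and 24.3% and 15.6%. In all 3 of these well covered flanked copies, the lowest control lay far above the higher knockout sample. Well covered CpG-dense copies, at chr16:57121917-57121940 (47 CpGs) and chr9:69608023-69608046 (31 CpGs), were at 0 to 1.22% in the controls and at most 1.32% in the knockout samples.

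The knockout samples kept methylation at a minority of copies. Tex15KO 16 was at or above 50% at 9 of the 95 copies that were not CpG-dense. The highest level among copies followed singly was at chr3:137332099-137332122, with 69.1% in Tex15KO 16 and 60% in Tex15KO 3, against 78.6% to 100% in the controls. Next came chr4:26590553-26590576, with 66.7% in Tex15KO 16 but 31.8% in Tex15KO 3, and chr19:14074518-14074541, with 55.8% and 39.3%. In all 3 the knockout samples were still below every control. Outside the copies followed singly, chr11:46317798-46317821 was at 67.5% in Tex15KO 16 against 60% of 15 calls in Tex15WT 8. The copy at chr7:16348913-16348936 was at 66.7% in Tex15KO 16 against 50% of 24 calls in Tex15WT 9. At the rest of the 9, Tex15KO 16 was below every control with calls.

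At the other end, several copies had no methylated call in Tex15KO 16. The copy at chr10:105362470-105362493 had 0% of 36 calls there and 26.1% in Tex15KO 3, against 70.6% to 100% in the controls. At chr7:54768199-54768222 the values were 0% of 38 calls and 1.85%, against 83.3% to 94.4%. At chr7:83854542-83854565 they were 0% of 34 calls and 67.9% of 165 calls, so the 2 knockout samples stood far apart there. The lowest levels of all, 0% in Tex15KO 16, also included the CpG-dense copies at chr10:70700719-70700742 and chr15:79342138-79342161, which were at 0 to 1.56% in the controls.

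Which copies kept methylation differed between the 2 knockout samples. Over the 73 copies that were not CpG-dense and had 10 or more calls in both, 60 were under 50% in both pups, 7 were at 50% or more in Tex15KO 3 only, 5 in Tex15KO 16 only and 1 in both. Pearson's r between the pups over these copies was 0.0481 and Spearman's rho 0.0430. Between the wild-type samples the values were 0.772 and 0.545 over 70 copies, and between the heterozygous samples 0.659 and 0.507 over 69 copies. Copies share libraries and differ in calls, so these are descriptions without a test. Cytosines with calls had a median of 8 in Tex15KO 3 and of 2 to 4 elsewhere. Over the table, CpGs read 6 to 10 times were wholly methylated or wholly unmethylated in 96.2% of cases in Tex15KO 3. In the other samples this share was 55.6% to 66.9%. At copies that were not CpG-dense it was 38.7% in Tex15KO 3 and 33.6% to 45.5% in the others. How much the uneven depth of Tex15KO 3 adds to the difference between the pups was not tested. The median difference between the knockout pups at a copy was 13.2 points. An example chosen after its values were seen is chr14:74840823-74840846, at 85.5% of 76 calls in Tex15KO 3 and 8% of 25 calls in Tex15KO 16.

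**Figure D3:**
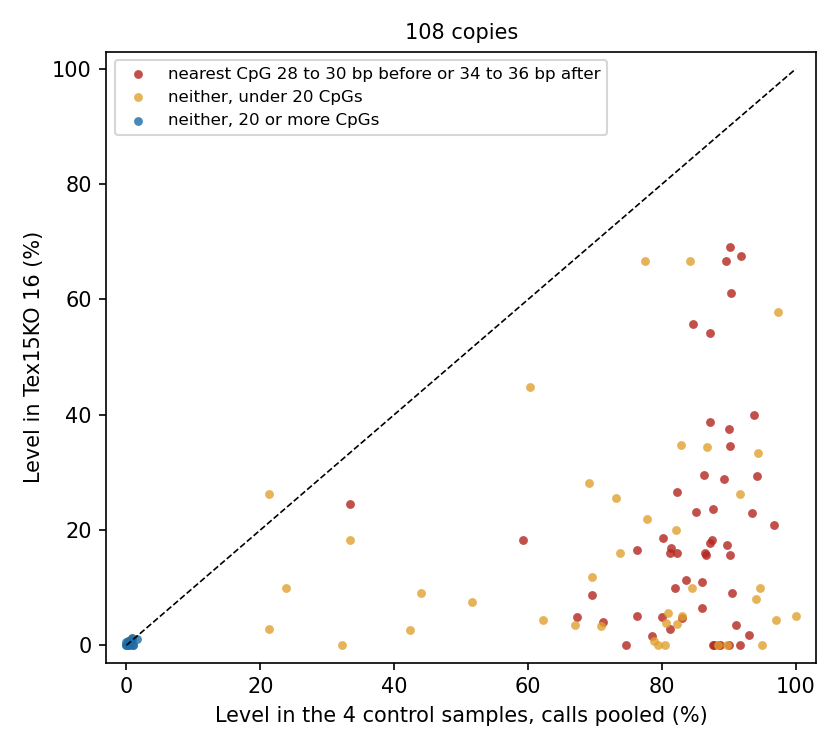
Methylation level of each of the 108 copies in Tex15KO 16 (%, vertical axis) against its level in the pooled calls of the 4 controls (%, horizontal axis), coloured by the neighbouring CpGs, with a dashed line at equal levels. Copies highly methylated in controls spread from 0 to 69.1% in Tex15KO 16, and the CpG-dense copies lie in the corner near 0.

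Not every copy was methylated in the controls. The calls of the 4 controls together were under 50% at 10 of the 95 copies that were not CpG-dense. One was a flanked copy with 31 CpGs at chr19:29880398-29880421, at 0 to 2.41% in the controls and 0 and 1.16% in the knockout samples, in the range of the CpG-dense copies. Another, at chr15:95357612-95357635 with 16 CpGs, was at 0 to 1.82% in the controls. Both were chosen for mention after their values were seen.

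Within the run, all 5 CpGs were low in the knockout samples. From the first to the fifth CpG, over copies that were not CpG-dense, the wild-type mean was 79.4%, 83.0%, 86.4%, 82.5% and 86.8%, the heterozygous mean 77.1%, 78.3%, 80.9%, 80.9% and 84.1%, and the knockout mean 21.5%, 17.0%, 17.2%, 16.2% and 24.6%. The lowest control value at any of the 5 positions was 75.8% and the highest knockout value 30.6%. Cytosines of the strand that reads 4-5-7-7 were at 21.8% and 15.8% in the knockout samples and those of the opposite strand at 22.2% and 16.8%, so both strands of the CpGs were low.

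The level in Tex15KO 16 is given here by the features of a copy. In this sample, over copies that were not CpG-dense and had 10 or more calls in each sample but Tex15KO 3, the median was 16.3% at 40 flanked copies and 16.03% at 19 with neither feature. It was 17.9% at copies with 5 to 7 CpGs, 18.2% with 8 to 10 and 15.8% with 11 or more. In Tex15KO 3, over the copies with enough calls in every sample, the median was 20.1% at 39 flanked copies and 5.05% at 12 with neither feature. In Tex15KO 16, copies with both the CpG 29 bp before and that 35 bp after had a median of 15.9% (10 copies). The 6 copies on X, where males have 1 copy of the chromosome, were at 82.6% to 86.0% in the controls and 22.3% and 18.6% in the knockout samples. The 2 on sequence assigned to Y were at 67.7% to 72.9%, and 35.1% and 27.2%.

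The low methylation in the knockout samples extended past the run. The profile below covers the 95 copies that were not CpG-dense, oriented so that the run reads 4-5-7-7. Within 100 bp before the run, the controls were at 66.2% to 77.8% and Tex15KO 3 and 16 at 24.3% and 18.4%. At 300 to 600 bp before it, outside the 300 bp that made a CpG a member, the controls were at 61.3% to 69.0% and the knockout samples at 13.3% and 17.8%. At 600 to 1000 bp before the run the 2 knockout samples parted, with 73.0% (159 calls) in Tex15KO 3 and 37.6% in Tex15KO 16 against 60.2% to 69.2% in controls. At 1 to 2 kb before it, the controls were at 79.0% to 81.9% and the knockout samples at 77.6% and 71.4%, and at 3 to 4 kb at 84.9% to 86.8% and 88.3% and 85.6%. Farther out the order varied. At 5 to 6 kb the controls were at 78.5% to 85.5% and the knockout samples at 73.6% and 76.1%, and at 6 to 7 kb at 81.2% to 87.7% and at 71.4% and 68.7%, again below all controls. At 7 to 8 kb they were at 76.4% to 82.5% and at 79.9% and 75.4%.

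After the run, CpGs in the table were few. Within 100 bp the controls were at 61.4% to 72.0% and the knockout samples at 20.9% and 13.6%, and at 300 to 600 bp at 72.2% to 81.1% and at 12.3% and 17.1%. At 600 to 1000 bp only 8 of 95 copies had a CpG in the table. The controls were themselves low there, at 21.9% to 28.8%, with 20.7% of 29 calls in Tex15KO 3 and 6.96% in Tex15KO 16. At 1 to 2 kb the controls were at 47.9% to 60.4% and the knockout samples at 35.5% and 23.9%. From 6 to 7 kb after the run, the controls were at 71.0% to 75.5% and the knockout samples at 72.0% and 78.8%.

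**Figure D4:**
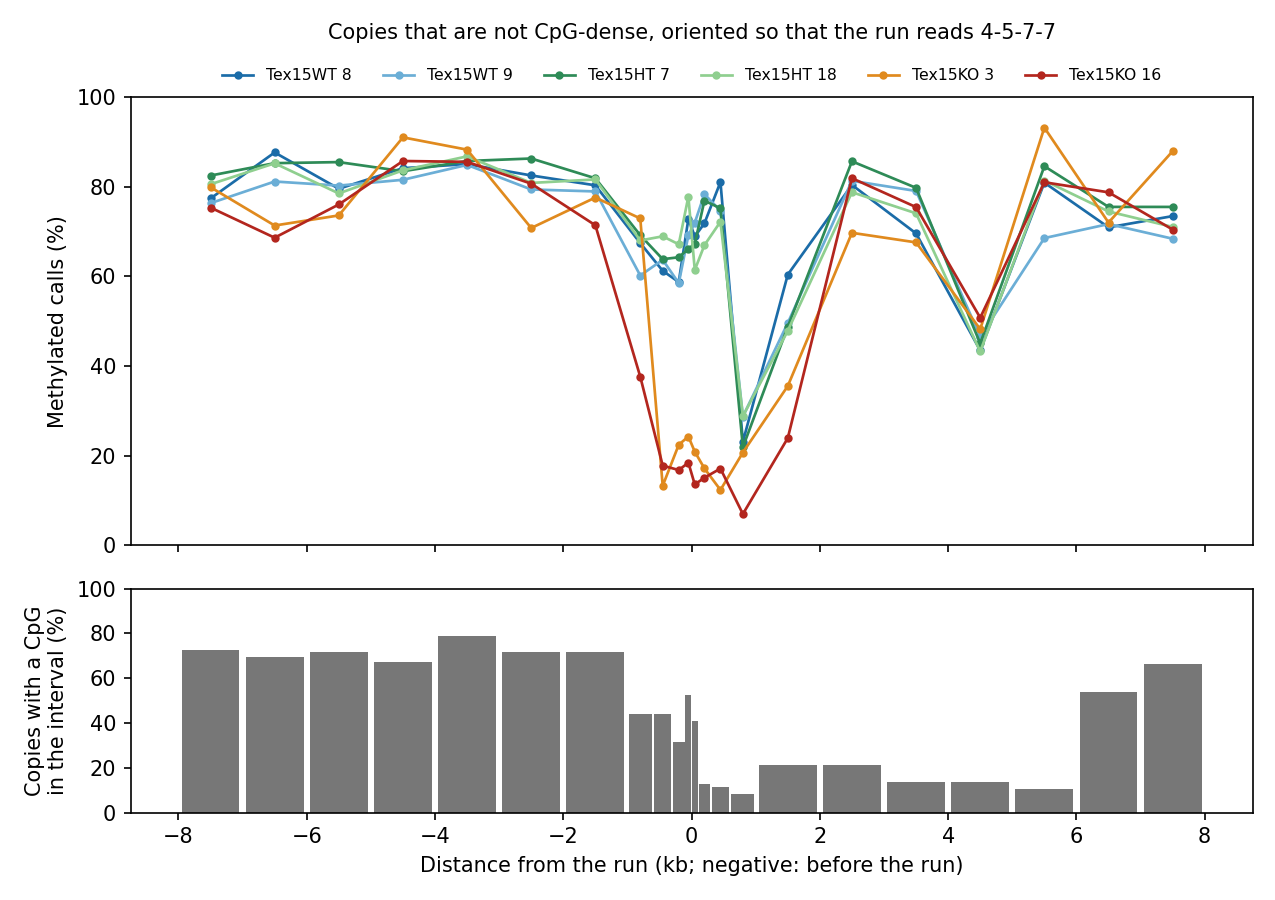
Top: share of methylated calls (%, vertical axis) in each sample by distance from the run (kb, horizontal axis), over the 95 copies that were not CpG-dense. Bottom: share of these copies (%) with at least 1 CpG of the table in the interval. Both knockout lines lie below all control lines within 600 bp of the run, and few copies have a CpG between 1 and 6 kb after it.

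The region around a copy was lopsided in its CpGs. A CpG of the table lay 1 to 2 kb before the run in 68 of the 95 copies, but 5 to 6 kb after it in only 10, and 7 to 8 kb after it in 63. The longest stretch without a CpG of the table that began within 1 kb had a median length of 1096 bp before the run and 6229 bp after it, and was longer after it in 79 of 95 copies. It ran over 3 kb in 66 copies after the run and in 12 before it. At the 13 CpG-dense copies the medians were 295 and 293 bp, with 0 stretches over 3 kb on either side. The table lists a cytosine only where the samples of each genotype had enough calls, so these are stretches without listed CpGs, not without CpGs.

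In 53 copies this stretch after the run was between 4 and 9 kb long, bounds chosen after the lengths were seen, and only 3 copies had one of that length before the run. In these 53, its quartiles were 6229, 6597 and 7100 bp, and 37 of them lay between 6 and 8 kb. The members at these copies were at 83.4% and 83.5% in the wild-type samples, 78.7% and 76.6% in the heterozygous samples and 18.3% and 17.3% in the knockout samples. In the first 600 bp beyond the stretch the levels were 73.5% and 69.6%, 78.2% and 78.1%, and 83.9% and 75.4%. The knockout samples were thus low on the near side. On the far side, Tex15KO 16 lay within the range of the controls and Tex15KO 3 above all of them. The 42 copies without such a stretch that were not CpG-dense were low in the knockout samples as well, at 27.2% and 15.3% against 69.2% to 74.6% in the controls.

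Spacings that nearly match lie just outside the rule and are given without a test. In 156 runs, exactly 1 of the 4 distances differed from 4-5-7-7 by 1 bp. Their 774 CpGs were at 3.02% to 4.92% in the controls and at 3.09% and 2.59% in the knockout samples, and 2 of these runs had their nearest CpG at the flanking distances. Among these spacings, 4-6-7-7 (16 runs) had the highest control levels, at 11.4% to 23.4%, with 7.38% and 5.88% in the knockout samples. Runs with other recurring spacings, 3-7-13-4 (84 runs), 4-5-15-4 (19), 2-6-2-4 (295) and 4-11-5-6 (36), were found within 8 kb of 0 of the 108 copies. Among 5852 spacings that recurred at 10 or more places with enough calls, 25 had a larger decrease from wild type to knockout than 4-5-7-7 (-58.1 points at the CpGs of its runs, against a median of -0.48 points). Most recurring spacings had little methylation to lose, with a median level of 3.41% to 3.88% in the controls. All 4 controls were at 50% or more at only 166 spacings, so the median is no measure of how unusual 4-5-7-7 is.

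Depth at the copies differed from that of the table. The table held 27495658 to 52935635 calls per sample, and cytosines with 0 calls made up 74.4% of those in Tex15KO 3 and 1.71% to 10.2% of those elsewhere. At the copies that were not CpG-dense, 26.5% of CpGs had 0 calls in Tex15KO 3, against 79.2% at the CpG-dense copies. Mean calls per CpG there were 5.42 in Tex15KO 3 and 7.48 in Tex15KO 16, against 3.19 and 6.15 over the table, and 3.89 to 4.54 in the controls, against 3.83 to 4.75. Tex15KO 3 had 0 calls at 16 of the 108 copies, and Tex15KO 16 at 0. The part of depth in the knockout levels was not tested.

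Heterozygous and wild-type pups could be compared with a test, because the difference between them took no part in choosing the members, although both served as controls in that choice. Over all members, the Tex15HT mean was 1.03 points below the Tex15WT mean (-1.03), within the spread between the wild-type pups, and an exact two-sided permutation test gave p = 0.333. With 2 pups per group that is also the smallest p the test can give, and both heterozygous pups lay below both wild-type pups. At the CpGs of the runs alone, Tex15HT 7 and 18 were at 73.2% and 71.2%, against 75.4% and 76.5% in Tex15WT 8 and 9. At the members outside the runs the genotypes overlapped, at 40.7% and 39.0% against 39.7% and 38.5%. Copy by copy, edgeR's quasi-likelihood test with Benjamini-Hochberg adjustment over 330097 features, the 61 copies and all 1 kb tiles, called 0 copies lower or higher, with a lowest adjusted p of 1. Of all features, edgeR called 0.00121% lower and 0% higher, and limma 0%. At an unadjusted p under 0.05, edgeR had 0 copies (0.537% of all features) and limma 2 copies, both lower (1.57% of all features). With only Tex15WT and Tex15HT in the fit, edgeR had 2 copies at that limit, both lower (2.92% of all features). It again called 0 copies after adjustment.

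The runs were also tested as a single feature among the 5852 recurring spacings. In edgeR's quasi-likelihood test with Benjamini-Hochberg adjustment, their log2 odds ratio between Tex15HT and Tex15WT was -0.28, with an adjusted p of 1. Neither edgeR nor limma called any spacing (0% of spacings), and at an unadjusted p under 0.05 edgeR had 46 (0.786%) and limma 83 (1.42%). At the 61 copies the difference from Tex15WT to Tex15HT had a median of -3.52 points, with 42 lower and 16 higher, while 42.8% of tiles were lower and their median was 0.91 points. No copy was called between these genotypes, which does not show that their levels were alike.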

How the data were processed

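Whole-genome bisulfite sequencing of sorted male germ cells from 6 pups gave 1 table for all samples. The authors deposited counts of coverage, C calls and T calls at each CpG cytosine, per the file headers, as raw counts. BSMAP, Bismark and methylKit were used on mm9, per the submitters' processing notes, which give no role or version. Whether PCR duplicates were removed, and the conversion rate of the lambda spike, is not given in the sources used here. Groups came from the genotype labels.

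Calls were summed over both strands and over the members, a level being the C calls in percent of all calls. Copies and 1 kb tiles with at least 3 CpGs (tiles) and 10 calls in each sample were tested between Tex15HT and Tex15WT with edgeR 4.0.16 in R 4.3.3, with limma 3.58.1 on log2((C + 1)/(T + 1)) as an alternative, both tested on simulated data. All 6 samples entered the fit, where edgeR estimated an infinite prior df over the copies and tiles. Fits without 1 sample kept the same features. P-values rest on the spread between individual pups. For copies and tiles in edgeR, this spread was estimated over all features and all 6 samples, so a copy's own spread had no weight.

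Copies were named by most calls in their least covered sample (5), by the highest and lowest level in Tex15KO 16 (3 each, the lowest also without CpG-dense copies), and by most runs. The members and lists were chosen with earlier results of these data known. Alternatives changed the members, the minimum calls, the tool and the samples.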

Additional observations from a re-analysis of the deposited data

How the results depend on the processing

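The difference from Tex15WT to Tex15KO over all members (-40.2 points) stayed negative under every alternative tried, and its size followed which CpGs were counted. It was -58.1 with the 5 CpGs of the runs alone, -26.5 without them, -50.5 as a mean over single copies, -35.35 without the most covered 0.1% of cytosines, -51.2 with cytosines of 5 or more calls, and -58.3 without the CpG-dense copies, an alternative chosen after seeing the data. From Tex15HT to Tex15KO (-39.2) the values were -54.3, -27.3, -46.3, -51.3 and -56.3 for the same settings, leaving aside that on the most covered cytosines, which moved it by less than the spread between pups. Leaving out 1 sample gave -43.5 to -36.9 against Tex15WT and -42.5 to -35.9 against Tex15HT. The 46 copies with both knockout samples below all controls became 23 at 30 calls in each sample, which 32 copies passed, and 46 to 49 when 1 sample was left out.

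The difference from Tex15WT to Tex15HT (-1.03 points) changed sign to 0.762 without the CpGs of the runs and to 0.0215 with cytosines of 5 or more calls (the cause was not tested). It was -3.76 with the CpGs of the runs alone and -4.26 as a mean over single copies, and ranged from -1.82 to -0.233 when 1 sample was left out. The count of copies called was 0 under all 11 alternatives, and the log2 odds ratio of the spacing stayed between -0.35 and -0.21. No paired analysis was possible because the pup numbers are not shared between the groups. With 2 pups per group the permutation test cannot reach p = 0.05, and with about 4 calls per CpG a single copy gives a coarse level.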
